A study of Homo sapiens with 9 samples.

Results

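The graded response of gene expression to SOX11 was measured over 3 amounts of SOX11 mRNA in Z138, an established human line of mantle cell lymphoma, which is a malignancy of B cells. All 9 of the 9 libraries were used, chosen because each carries its own SOX11 value. The groups were wild-type Z138, Z138 with SOX11 knocked out, and the knockout with SOX11 put back, called the rescue, with 3 RNA-seq libraries each. All groups shared the parental line and the growth medium, and no drug or stimulus is named. The labels give each library a batch that equals its replicate number, so each batch held 1 library of each group. Where the SOX11 gene was cut, which construct and promoter drove the rescue, and whether knockout and rescue were clones or pools are not given in the sources used here. Nothing says that the replicates were separate cultures, so the spread behind each p-value is that of the libraries and may be technical. A difference between cell clones and one due to SOX11 cannot be told apart. Because the rescue is built on the knockout and carries more SOX11 than wild type, the order of SOX11 amount is not the order in which the cells were made.

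SOX11 is a transcription factor of the SRY-related HMG box family, which binds short A/T-rich DNA motifs and bends the DNA. It acts in the developing nervous system, where it turns on genes of neuronal differentiation, and is silent in normal B cells. Most mantle cell lymphomas express it, and it has been linked there to PAX5, to a block of plasma cell differentiation, to PDGFA and angiogenesis, and to migration and adhesion. How a target answers to more factor is commonly described by its shape: a gene can go on rising, or can reach a plateau when the factor is no longer limiting.

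SOX11 itself was lowest in the knockout, intermediate in wild type and highest in the rescue. Normalized counts, recovered from the deposited values, were 901, 1335 and 862 in knockout replicates 1 to 3, 3800, 3845 and 3003 in wild type, and 12818, 13849 and 12715 in the rescue. The 3 groups did not overlap, and wild type stood 3.44-fold above the knockout and 3.70-fold below the rescue. On the deposited log2 scale the lower step, from knockout to wild type, was 1.32 and the upper step, from wild type to rescue, was 1.70, against SDs within groups of 0.0644 to 0.222 (n = 3). These values order the groups and enter the regression, so they are given as a description with no test. The knockout libraries therefore kept SOX11 mRNA, and whether that mRNA makes protein was not measured. Since the values form 3 separate clusters, no correlation over the 9 libraries is given.

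**Figure D1:**
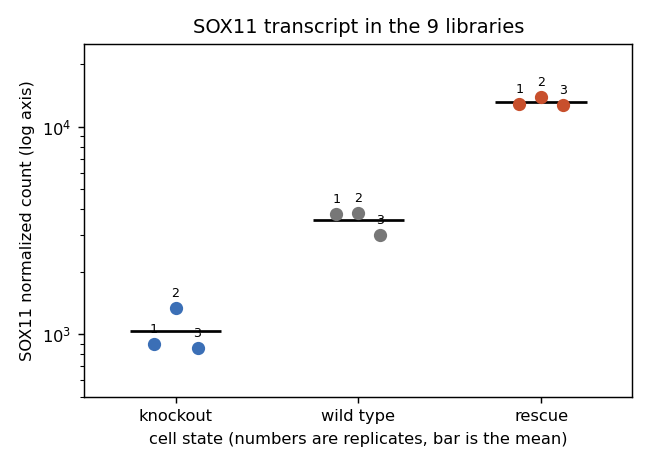
SOX11 normalized count in each library on a log axis, by group, with points for libraries and bars for the group means. The 3 groups do not overlap, with wild type 3.44-fold above the knockout and 3.70-fold below the rescue.

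Each of 11541 tested genes was regressed on the SOX11 value of the same library, with the batch as a block. The slope is a log2 difference in the gene per log2 unit of SOX11, on the deposited variance-stabilized scale, which understates the change of genes with low counts. Folds therefore come from group means of normalized counts. Depth was estimated at 30800000 to 40700000 reads per library. At an adjusted p under 0.05 (limma, Benjamini-Hochberg), 2425 genes (21.01%) had a slope, 1286 of them upward (11.14%) and 1139 downward (9.87%). A slope alone does not say that a gene moved in both steps, so group means with the batch gave the lower step, the upper step and the bend, the difference between the slopes of the upper and the lower part of the range. The lower step was called in 2483 genes (21.51%), upward in 11.34% and downward in 10.17% of those tested, and the upper step in 929 (8.05%), although the upper step in SOX11 was the larger on this scale. The bend was called in 1027 genes (8.9%), positive (the upper slope more upward than the lower) in 3.76% and negative in 5.14%, and 332 genes (2.88%) had both a called slope and a called bend. All 3 libraries of a group lay beyond all 3 of the next in 29.49% of genes for knockout and wild type and 20.74% for wild type and rescue, which is the background for the groups below that did not overlap.

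Among the genes tested, 258 (2.24%) moved in the same direction in both steps, 179 rising (1.55%) and 79 falling (0.685%). A further 621 (5.38%) changed in the lower step, did not pass in the upper step and had a called bend against it, and are described as levelling off at the wild-type amount, 337 of them rising (2.92%) and 284 falling (2.46%). In 100 genes (0.866%) the upper step and the bend were called and the lower step was not, 47 rising (0.407%) and 53 falling (0.459%). In 249 genes (2.16%) both steps were called in opposite directions, so that wild type was highest (158 genes, 1.37%) or lowest (91 genes, 0.788%). Such genes were about as many as the 258 that moved the same way. Both steps share the wild-type libraries, so an error in wild type alone moves them in opposite directions. Another 1890 genes with a called slope (16.38%) entered none of these patterns, 754 of them with a called lower step, 231 with a called upper step and 905 with neither. At the edge of the stepwise pattern lay UBE2J1, FCGRT and HLA-DQA1 just inside, where the larger of the 2 adjusted p was 0.049997, 0.0498 and 0.0497, and JAG2, RCN2 and RGPD5 just outside, at 0.0503, 0.0505 and 0.0514.

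**Figure D2:**
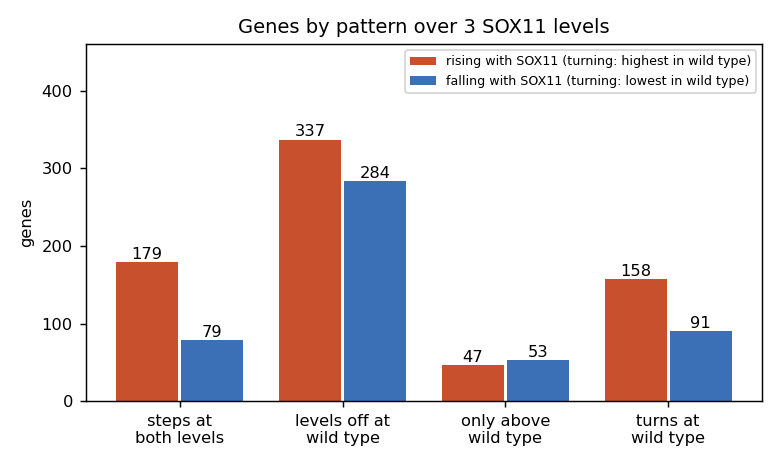
Number of tested genes in each pattern over the 3 SOX11 levels, with bars for genes that rise and that fall (for the turning pattern, highest and lowest in wild type). Levelling off, with 337 and 284 genes, is the most frequent pattern and change in the upper step alone, with 47 and 53, the rarest.

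Genes that rose in both steps were led by MDK, which encodes midkine, a secreted heparin-binding growth factor. MDK (chr11:46380756-46383837, GENCODE 29 on GRCh38) had 50.2, 59.4 and 47.3 normalized counts in the knockout, 930, 915 and 930 in wild type, and 1585, 1559 and 1670 in the rescue. The groups were far apart, with a 17.7-fold lower step and a 1.74-fold upper step. The lower step was 1.52 ± 0.047 (log2, SE) and the upper 0.53 ± 0.047, with adjusted p = 3.2e-08 and 0.0001, and the bend was called against the upper step (adjusted p = 8.1e-06). MDK thus went on rising above the wild-type amount, more slowly per unit of SOX11. MLLT11, a nuclear protein of neurons and leukaemias, had 345, 327 and 415 in the knockout, 1877, 1381 and 1985 in wild type, and 3058, 3122 and 3034 in the rescue, with folds of 4.82 and 1.76. CRACD, a regulator of actin capping, went from a mean of 23.3 to 588 and 1063, and TMEFF1, a transmembrane protein of the brain, from 10.1 to 300 and 722. In all 4 the larger fold lay in the lower step.

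SYNPO2L, an actin-binding protein of the Z-disc of muscle, behaved otherwise. Its counts were 156, 245 and 139 in the knockout, 382, 589 and 355 in wild type, and 1137, 1682 and 1095 in the rescue. Replicate 2 was the highest in each group, and the groups did not overlap. Its folds were 2.46 in the lower and 2.95 in the upper step, its slope was 0.46 ± 0.025 (adjusted p = 8.2e-05), and the bend did not pass (adjusted p = 0.177). FSCN1, fascin, which bundles actin in filopodia, had its larger step above wild type, with 120, 208 and 171, then 267, 315 and 258, then 1011, 1444 and 1256, folds of 1.68 and 4.42 and a called bend (adjusted p = 0.0016). Without the replicate block its lower step did not pass (adjusted p = 0.0695). FOXO1, a transcription factor of early B cell development and of the germinal centre, was close to a straight line. Its counts were 461, 637 and 509, then 809, 1104 and 817, then 1275, 1707 and 1407, with steps of 0.42 and 0.45 log2 (SE 0.046 each), folds of 1.70 and 1.61, and a slope of 0.29 ± 0.017 (adjusted p = 8.8e-05).

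The other rising stepwise genes with large changes were TUBA1A, an alpha tubulin of neurons, ASAP2, a GTPase-activating protein for ARF, DTX1, a Notch-binding ubiquitin ligase, MARCKSL1, an actin-binding membrane protein, FNBP1L, a membrane-curving activator of actin assembly, and MEX3A, an RNA-binding protein. TUBA1A had 6296, 6705 and 7450, then 14950, 17210 and 16230, then 20732, 23844 and 24690, with folds of 2.37 and 1.43. Alpha tubulin genes are near-identical in sequence, so reads may be divided between them. MEX3A had means of 2106 ± 4.24, 4443 ± 404 and 6599 ± 400 (SD, n = 3), and DTX1 3196 ± 223, 7406 ± 1024 and 9731 ± 512. The call for ASAP2, with means of 9.13, 393 and 601, depended on single settings: its upper step had an adjusted p of 0.0503 without rescue replicate 2 and 0.169 without the replicate block. Over all 179 rising genes the median fold was 1.99 in the lower and 1.48 in the upper step, and the bend was called in 48.

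Sequence before the start site is shown for 3 of the largest rising stepwise genes, because SOX proteins recognise short cores of the kind ACAAAG, and also ACAAT. The sequences are RefSeq's on GRCh38.p14, trimmed to the bases that no GENCODE 29 exon covers. Both strands were searched for each motif, neither of which contains the other, and matches are in capitals. TMEFF1 (chr9:100472899-100473112, plus strand) and ASAP2 (chr2:9206562-9206764, plus strand) were chosen after the matches were seen, and SYNPO2L (chr10:73656073-73656279, minus strand) is set beside them as a steep gene with no match in its window.
TMEFF1: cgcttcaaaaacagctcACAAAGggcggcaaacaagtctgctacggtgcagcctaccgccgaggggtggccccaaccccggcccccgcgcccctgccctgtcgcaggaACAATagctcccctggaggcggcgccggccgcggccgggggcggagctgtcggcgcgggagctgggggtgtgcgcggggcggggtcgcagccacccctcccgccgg
ASAP2: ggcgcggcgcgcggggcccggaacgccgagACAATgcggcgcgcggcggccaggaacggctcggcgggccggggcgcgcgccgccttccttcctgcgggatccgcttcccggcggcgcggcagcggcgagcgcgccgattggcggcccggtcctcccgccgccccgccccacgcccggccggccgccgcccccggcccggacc
SYNPO2L: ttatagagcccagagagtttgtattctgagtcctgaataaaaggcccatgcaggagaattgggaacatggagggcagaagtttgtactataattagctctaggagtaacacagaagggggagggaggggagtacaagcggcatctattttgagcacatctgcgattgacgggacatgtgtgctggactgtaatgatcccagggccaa
Counted from 0 at the annotated start, TMEFF1 holds ACAAAG at -233 and ACAAT at -142, with 2 further matches to ACAAAG after the start, and ASAP2 holds ACAAT at -220. In the 300-base promoter windows, which run from 250 bases before to 50 after the start, ACAAAG on either strand was found in 17.8% of the 152 matched rising stepwise genes, 16.9% of 266 rising levelling genes, 8.33% of 60 falling stepwise genes and 6.39% of 219 falling levelling genes, against 10.3% of all 9116 matched genes. In the smaller patterns it was found in 8.82% of 34 late rising and 15.6% of 45 late falling genes (those changed in the upper step alone), and in 12.1% of 116 genes highest and 12.3% of 65 lowest in wild type. ACAAT was found in 25%, 14.7%, 20% and 18.7% of the first 4 sets, against 16.3% of all genes, in 26.5% of late rising and 17.8% of late falling genes, and in 13 of the 116 genes highest and 30.8% of those lowest in wild type. These shares were not tested, and a match is not a binding site.

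Genes that fell in both steps moved by less. The largest fall was in CDK6, a cyclin-dependent kinase of the G1 phase, with 1055, 800 and 851 in the knockout, 522, 344 and 252 in wild type, and 248, 162 and 129 in the rescue. The groups did not overlap, the folds were 2.42 and 2.07, and without the replicate block the upper step did not pass (adjusted p = 0.0965). NR3C1 (chr5:143277931-143435512), the glucocorticoid receptor, fell at an even pace. It had 1766, 1639 and 1427, then 1015, 1097 and 910, then 590, 697 and 599, with steps of -0.45 and -0.40 log2 (SE 0.054 each), folds of 1.60 in both, and a slope of -0.28 ± 0.020 (adjusted p = 0.00022). CIITA (chr16:10866222-10943021), the master activator of MHC class II genes, had 5603, 5429 and 6361, then 4129, 4271 and 4869, then 3423, 3282 and 3459, with folds of 1.31 in each step and a slope of -0.22 ± 0.015 (adjusted p = 0.00018). For both the bend did not pass (adjusted p = 0.334 and 0.504), and each step separated all libraries.

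SYNPO, synaptopodin, an actin-binding protein, fell from a mean of 1555 to 842 and 554, and CPT1A, the mitochondrial carnitine palmitoyltransferase that admits long-chain fatty acids, from 1456 to 1042 and 547. CAV1, caveolin, fell from 3437 to 2457 and 1713, SSR3, a subunit of the translocon-associated complex of the endoplasmic reticulum, from 9497 to 7442 and 5650, and SLC25A23, a mitochondrial ATP-magnesium/phosphate carrier, from 6143 to 4345 and 3438. SWAP70, a B cell regulator of actin, fell from 8202 to 5368 and 4346, and TNFRSF1B, a TNF receptor, from 2598 to 1855 and 1428. FKBP11, a prolyl isomerase of secretory cells, had means of 4012, 2678 and 2131, and PIEZO1, a mechanosensitive channel, of 6097, 3866 and 2957. The upper step of FKBP11 had an adjusted p of 0.0847 without rescue replicate 2 and that of PIEZO1 0.0633 without wild-type replicate 3, and without the replicate block they were 0.0877 and 0.0921. Over the 79 falling genes the median size of the lower step was 0.239 and of the upper step 0.250 (log2), and the bend was called in 7.

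**Figure D3:**
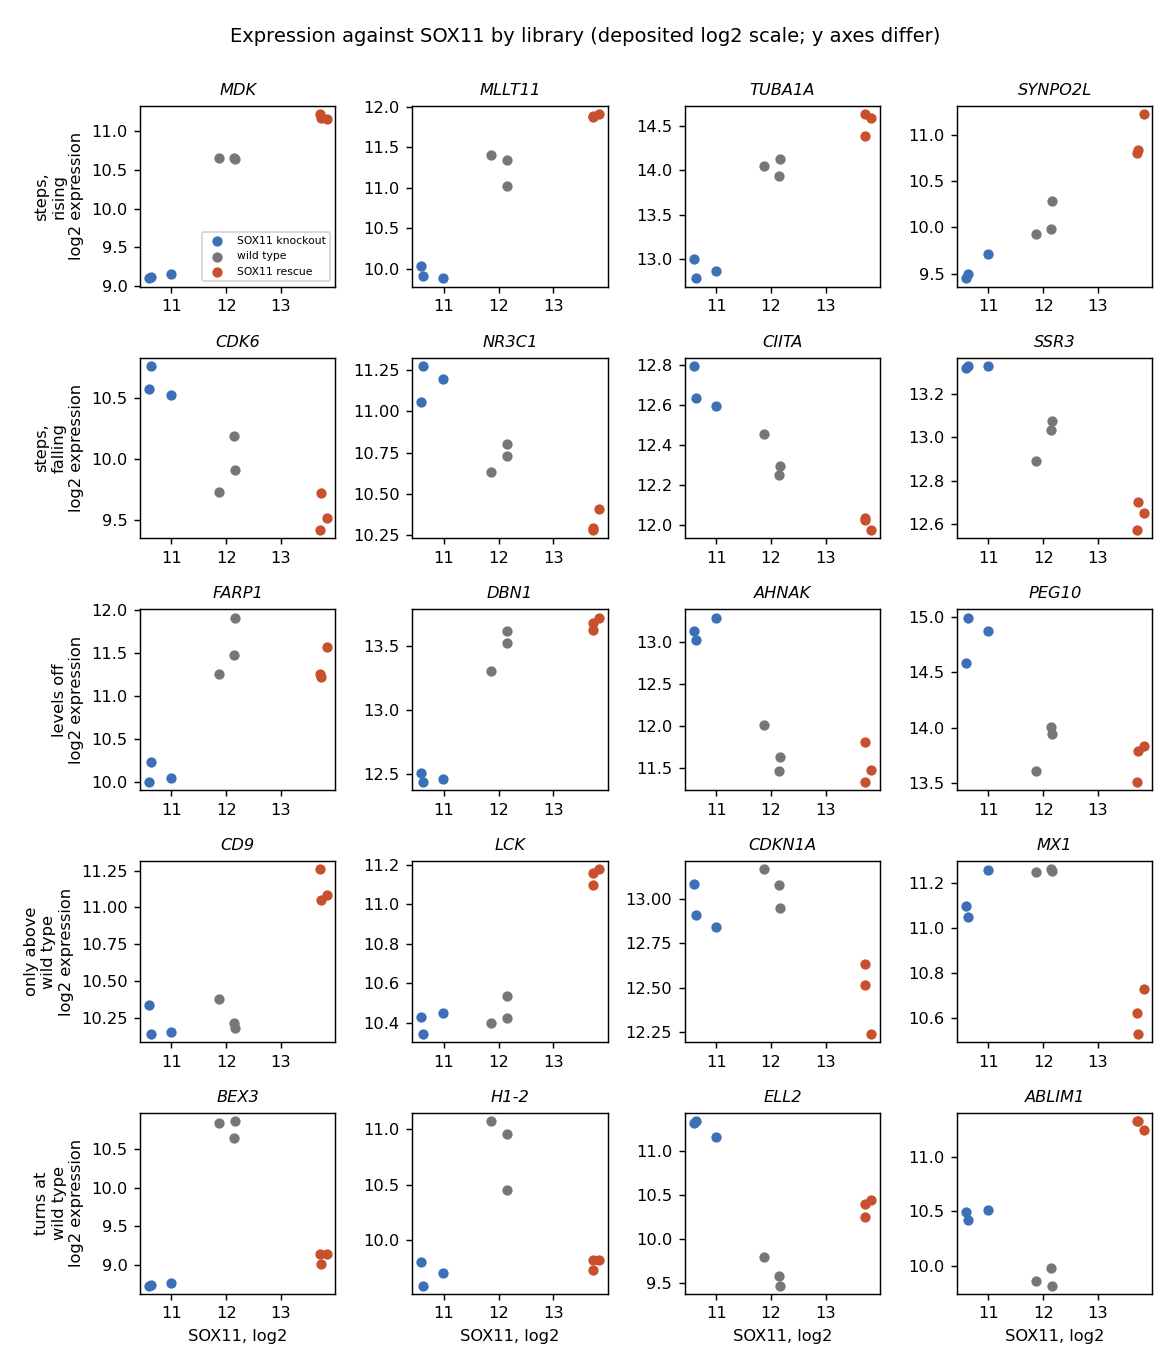
Expression on the deposited log2 scale against SOX11 in the same library, for 4 genes of each pattern, with 1 point per library coloured by group and y axes that differ. Rows from the top show genes that rise in steps, fall in steps, level off, differ only in the upper step and turn at wild type; MDK lies at 3 heights, while AHNAK in wild type and the rescue overlaps.

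Genes that levelled off differed between the knockout and wild type and gave no called difference above it. INSM1 (chr20:20368121-20370949), a zinc finger factor of neuroendocrine differentiation, had 654, 623 and 725 in the knockout, 2554, 1940 and 2010 in wild type, and 1973, 1927 and 1993 in the rescue. Wild type and rescue overlapped, the lower fold was 3.25, and the upper step was -0.10 log2 with a 95% interval from -0.25 to 0.045. DBN1, drebrin, an actin-binding protein of dendrites, had 4786, 4881 and 5049, then 11030, 11860 and 9364, then 11878, 12800 and 12380. Its upper step, 0.19 log2 (95% interval 0.052 to 0.34, adjusted p = 0.0978), lay above 0 before adjustment, against a lower step of 1.02. FARP1, a guanine nucleotide exchange factor of dendrites, went from a mean of 459 to 2336 and 1912, and PLEKHG4B, an exchange factor of the same broad family, from 283 to 1452 and 1300. KCNN1, a calcium-activated potassium channel of neurons, went from 35.6 to 492 and 608, and SLC25A29, a mitochondrial carrier of basic amino acids, from 299 to 1126 and 979. TBC1D16, a RAB GTPase-activating protein, had means of 447, 1416 and 1736 and its upper step passed without knockout replicate 3 (adjusted p = 0.0402), so its place in this pattern rested on that library. FYN, a SRC family kinase, was named for its list and went from 11.21 to 259 and 216.

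Among the genes that fell and levelled off, AHNAK, a giant scaffold protein, had 7575, 9265 and 8207 in the knockout, 2098, 2429 and 3377 in wild type, and 1860, 2122 and 2855 in the rescue, a 3.17-fold lower step and an upper step of -0.16 log2 (95% interval -0.36 to 0.039). ITGB7, an integrin of lymphocyte homing to the gut, had 1382, 1293 and 1372, then 351, 426 and 419, then 354, 324 and 422, with wild type and rescue overlapping. PEG10, an imprinted retrotransposon-derived gene, fell from a mean of 28249 to 14137 and 12720, SIM1, a bHLH-PAS factor, from 936 to 364 and 386, and STS, steroid sulphatase, from 4192 to 2018 and 2219. NECTIN1, a cell adhesion molecule, had means of 7240, 3714 and 4303, SLC9A7, a sodium/proton exchanger of the trans-Golgi, of 1102, 392 and 475, and TENT5C, a poly(A) polymerase of plasma cells, of 373, 86.5 and 146. TENT5C left the pattern without knockout replicate 1 or 2, when its upper step passed upward (adjusted p = 0.0345 and 0.0483). A missed threshold does not show a plateau: in 268 of the 621 levelling genes (2.32% of all tested), 160 rising (1.39%) and 108 falling (0.936%), the 95% interval of the upper step also lay within 0.5 of the size of the lower step. Medians over all 337 rising levelling genes were a fold of 1.80 in the lower and 1.12 in the upper step, and over the 284 falling genes 1.44 and 1.11.

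A few genes differed above the wild-type amount with no called difference below it. CD9, a tetraspanin of B cell and progenitor membranes, had 489, 495 and 634 in the knockout, 542, 514 and 670 in wild type, and 1416, 1466 and 1736 in the rescue. Knockout and wild type overlapped, and the rescue was 2.67-fold higher than wild type (upper step 0.87 ± 0.044 log2, adjusted p = 2.7e-06). RAG2 (chr11:36575574-36598279), part of the recombinase of antigen receptor genes in early lymphocytes, was at 0 in all 3 knockout libraries, at 2.58, 0 and 0 in wild type, and at 141, 62.3 and 112 in the rescue. LCK, a kinase of T cells and some B cell neoplasms, had 640, 732 and 714, then 709, 809 and 685, then 1481, 1604 and 1575. SATB1, a chromatin organiser of lymphocytes, went from a mean of 310 to 328 and 783, ARHGEF11, a RHOA exchange factor, from 699 to 713 and 1430, and LOXL4, a lysyl oxidase, from 330 to 273 and 700. TEAD2, a DNA-binding partner of YAP, was at 0.824, 0.867 and 1.65, then 3.79, 0 and 4.91, then 88.4, 69.4 and 76.2, though the bend that sets it in this pattern did not pass without wild-type replicate 2 (adjusted p = 0.0622). RAG2 and TEAD2 passed the filter for testing, a CPM of 1 in 3 libraries, only through the rescue. In knockout and wild type they lay near or under a floor of 3 reads, so a lower step could hardly be called. Their place in this pattern thus follows in part from the filter. Without the replicate block the bend did not pass for ARHGEF11 and LOXL4 (adjusted p = 0.0763 and 0.195). With SOX11 as a normalized count in place of its log2 value it did not pass for RAG2, LCK, SATB1, ARHGEF11 and TEAD2 (adjusted p of 0.0868 to 0.173).

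In the falling direction, CDKN1A (chr6:36676460-36687339), the p21 cell cycle inhibitor and a p53 target, had 6945, 6590 and 7940 in the knockout, 7902, 7140 and 8437 in wild type, and 5600, 4100 and 5118 in the rescue. Knockout and wild type overlapped, the rescue was 1.58-fold lower than wild type (adjusted p = 0.00022), and without the replicate block the bend did not pass (adjusted p = 0.0536). MX1, an interferon-induced antiviral GTPase, went from a mean of 1545 to 1728 and 905, PHLDA3, a p53-induced inhibitor of AKT, from 512 to 564 and 215, BACE2, a membrane protease, from 137 to 203 and 44.7, and KYNU, kynureninase, from 140 to 183 and 47.8. For MX1 and BACE2 the lower step passed upward without wild-type replicate 2 (adjusted p = 0.0414 and 0.0335), and for PHLDA3 the bend did not pass without wild-type replicate 1 or 2 (adjusted p = 0.069 and 0.0862). KYNU lost the pattern without any of the 3 wild-type libraries, with the lower step passing without replicate 1 (adjusted p = 0.0422) and the bend failing without replicates 2 and 3 (0.124 and 0.0745). With SOX11 as a normalized count the bend did not pass for PHLDA3 and KYNU (0.0809 and 0.07). The upper step of these 5 genes passed in all of those cases. Of 53 falling and 47 rising genes of this pattern, 2 and 8 kept it when each library was left out in turn.

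In the genes that turned at wild type, the rescue lay on the knockout's side of wild type although its SOX11 was the highest, so their order did not follow SOX11. BEX3, a small adaptor of the p75 neurotrophin receptor, had 3.89, 5.29 and 3.75 in the knockout, 918, 1156 and 1126 in wild type, and 33.0, 55.4 and 55.6 in the rescue. OXCT1, the mitochondrial enzyme that starts ketone body use, had 0, 1.36 and 8.85, then 263, 240 and 257, and was at 0 in all rescue libraries, at least 82.9-fold lower than wild type against a floor of 3 reads per library. OXCT1 passed the filter for testing only through wild type, so its pattern follows in part from the filter. H1-2, a linker histone whose mRNA is poorly captured by poly(A) selection, went from a mean of 241 to 1150 and 282, and SCCPDH, a predicted oxidoreductase, from 539 to 2086 and 869. CD24, a B cell surface glycoprotein linked to SOX11, had means of 5.51, 1741 and 1173 and was the 1 gene of this pattern whose slope was also called (adjusted p = 0.0474); it has near-identical copies elsewhere in the genome. ELL2, an elongation factor of antibody secretion, was lowest in wild type, with 1873, 1580 and 1828, then 187, 148 and 286, then 569, 723 and 684. APOBEC3G, a cytidine deaminase with close paralogs, had means of 1900, 746 and 1539, GMFG, an actin-debranching factor, of 506, 180 and 664, and ABLIM1, an actin-binding LIM protein, of 754, 329 and 1813.

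Gene lists were read by how many tested members had a called slope, against the background of 21.01%. The lists and their members were chosen with earlier results of these data known, and some members are among the leading genes above. The list counts are therefore a description and give no independent support. Of the list of SOX11-linked genes in mantle cell lymphoma, 16 of 18 were tested, 9 had an upward and 1 a downward slope, and the medians were 0.25 log2 in the lower and 0.0096 in the upper step, against -0.0048 and -3.5e-05 over all genes tested. STMN1, stathmin, a microtubule destabiliser, rose in both steps, with means of 27222 ± 1116, 35975 ± 2247 and 45801 ± 1366 (SD, n = 3) and folds of 1.32 and 1.27. PDGFA, an angiogenic ligand, levelled off, with means of 1514, 3362 and 3026. PAX5, the B cell identity factor, had means of 7474, 10832 and 12363 and a called slope (0.22 ± 0.029, adjusted p = 0.0016), but its upper step (adjusted p = 0.0485) did not pass without knockout replicates 1, 2 or 3 (0.0688, 0.0625 and 0.0588), wild-type replicates 1 or 3 (0.15 and 0.147) or rescue replicates 1 or 3 (0.116 and 0.22), or without the block (0.67). The upward count was 5 without any 1 of the 3 knockout libraries or without rescue replicate 1.

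Of the neuronal and axon growth genes 13 of 28 were tested, 7 had an upward and 0 a downward slope (7 and 0 by limma at an unadjusted p under 0.05), and the medians of the lower and upper steps were alike, at 0.22 and 0.21 log2. Besides MLLT11 and TMEFF1, the stepwise pattern held MAP2, a microtubule-associated protein of dendrites, with means of 165, 469 and 717, SEMA4D, a semaphorin, with 737, 922 and 1231, and its receptor PLXNB1, with 238, 921 and 1251. MAP2 left the pattern without the block, when the upper step had an adjusted p of 0.34, and without wild-type replicate 1 or 3 or any 1 of the rescue libraries (0.138, 0.0742, 0.0606, 0.134 and 0.115). SEMA4D left it without the block, when the lower step had an adjusted p of 0.0564, without any 1 of the knockout libraries or wild-type replicate 1 (0.0916, 0.0595, 0.0715 and 0.113), and without rescue replicate 3, when its upper step did not pass (0.0617). PLXNB1 moved to the levelling pattern without wild-type replicate 2 or 3 or rescue replicate 2 or 3 (upper step adjusted p of 0.0713 to 0.134). Of the 5 stepwise genes 3 were called without wild-type replicate 1 or 3 or rescue replicate 2, and 2 without rescue replicate 3. CRMP1, a collapsin response mediator, instead was at 0 in all knockout and rescue libraries and at 91.3, 90.1 and 110 in wild type, at least 31.6-fold above the knockout and at least 31.8-fold above the rescue. CRMP1 passed the filter for testing only through wild type, so its pattern follows in part from the filter. Of 31 tested actin cytoskeleton genes 10 had an upward and 7 a downward slope, against 11.14% and 9.87% of all genes. In steps 7 rose, against 1.55%, among them FSCN1, CRACD, MARCKSL1 and SYNPO2L, and 1, SYNPO, fell, against 0.685%. Without rescue replicate 2 the count rising in steps was 4. The downward slopes were 2 without knockout replicate 1 or 3 and 3 without knockout replicate 2 or rescue replicate 2.

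Of 16 tested MHC class II presentation genes 10 had a downward and 0 an upward slope (12 and 0 by limma at an unadjusted p under 0.05), the median slope was -0.14 against -0.0022 over all genes, and the count was 9 to 11 with each library left out. IFI30, a lysosomal thiol reductase, went from a mean of 7036 to 5858 and 4276, HLA-DPB1 from 1022 to 769 and 513, and CD74, the invariant chain, from 164690 to 115110 and 107640. CIITA, IFI30, HLA-DPB1, HLA-DQB1 and HLA-DQA1 were stepwise and CD74, HLA-DRB1, HLA-DPA1 and RFX5 levelled off. The division between these patterns was not stable: of the 5 stepwise calls 2 held without knockout replicate 1 or wild-type replicate 3, 3 without knockout replicates 2 or 3, wild-type replicate 1 or rescue replicates 1 or 2, and 1 without the block. HLA genes are polymorphic paralogs, and counts can be divided between them.

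Of 24 tested B cell transcription factors 8 had an upward and 2 a downward slope, and the patterns were mixed. Besides FOXO1, BACH2, a repressor of plasma cell differentiation, rose with means of 873, 1296 and 1831 (slope 0.23 ± 0.019, adjusted p = 0.00023), though neither step passed without the block (0.203 and 0.327). IRF8 levelled off, with means of 280, 659 and 568, whereas BCL11A was highest in wild type, with 98.8, 436 and 115. Of 19 plasma cell genes 8 had a downward and 1 an upward slope, and the downward count was 5 without knockout replicate 1 or 3 or rescue replicate 2. XBP1, the factor of the secretory programme, had means of 3735, 3233 and 2463 (slope -0.16, adjusted p = 0.00052).

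In 24 tested p53 targets the upper step was called downward in 13 and upward in 0, against a background of 3.79% and 4.26%. By limma at an unadjusted p under 0.05 these were 19 and 0. The lower step was called downward in 1 and upward in 5 of the 24, against 10.17% and 11.34% of all genes. The medians were 0.077 log2 in the lower and -0.24 in the upper step. The downward count in the upper step was 10 to 14 with each library left out, and 12, 10 and 7 without batches 1, 2 and 3. CDKN1A and PHLDA3 are given above; FDXR, a mitochondrial reductase, had means of 1863, 1572 and 947, SESN1, a sestrin, 1455, 1209 and 836, and MDM2, the ubiquitin ligase of p53, 5319, 6619 and 5286. Of 28 oxidative phosphorylation genes 18 had a downward and 0 an upward slope (20 and 0 by limma at an unadjusted p under 0.05), but 26 entered no pattern. The lower step was called downward in 10 and upward in 1 of the 28, against 10.17% and 11.34% of all genes. The upper step was called downward in 1, against 3.79%. NDUFV1, a complex I subunit, had means of 9297, 7683 and 6943. The count of downward slopes was 7 without knockout replicate 1, 9 without knockout replicate 3, 8 without rescue replicate 2 and 10 without rescue replicate 3. With a whole batch left out it was 7 without batch 1 or 2 and 2 without batch 3.

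Of 20 immediate early and heat shock genes 12 rose in the lower step, against a background of 11.34%, and 7 did without wild-type replicate 3. In the same list 1 fell in the lower step, against 10.17%, and 3 fell in the upper step, against 3.79%. The 3 were 1 without wild-type replicate 1 or rescue replicate 2 and 5 without knockout replicate 2. NR4A1, an orphan nuclear receptor induced by antigen receptor signals, had means of 363, 1152 and 912. Of 27 Wnt and Notch genes 14 rose and 4 fell in the lower step, against 11.34% and 10.17%, with 9 rising without wild-type replicate 1. In the upper step 2 rose and 6 fell, against a background of 4.26% and 3.79%. WNT16, a Wnt ligand, was highest in wild type, with 729, 814 and 764, then 1835, 2110 and 1705, then 619, 589 and 656. Neither the 26 tested G2 and mitosis genes nor the 3 tested SOX relatives, SOX4, SOX12 and SOX18, had a called slope (0 by limma in both lists). At an unadjusted p under 0.05 there were 2 upward and 4 downward slopes in the former and 1 downward slope in the latter. The steps did give a few calls. Of the 26 G2 and mitosis genes 4 fell in the lower step, against a background of 10.17%. Of the 3 SOX relatives 2 fell in the upper step, against 3.79%. Without wild-type replicate 3 the G2 and mitosis genes had 10 downward lower steps and 5 upward upper steps, and without knockout replicate 2 or wild-type replicate 1 they had 1 downward lower step. Without wild-type replicate 2 they had 2. For the SOX relatives fewer than 2 upper steps were called without wild-type replicate 1 or 2 or rescue replicate 1 or 2.

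**Figure D4:**
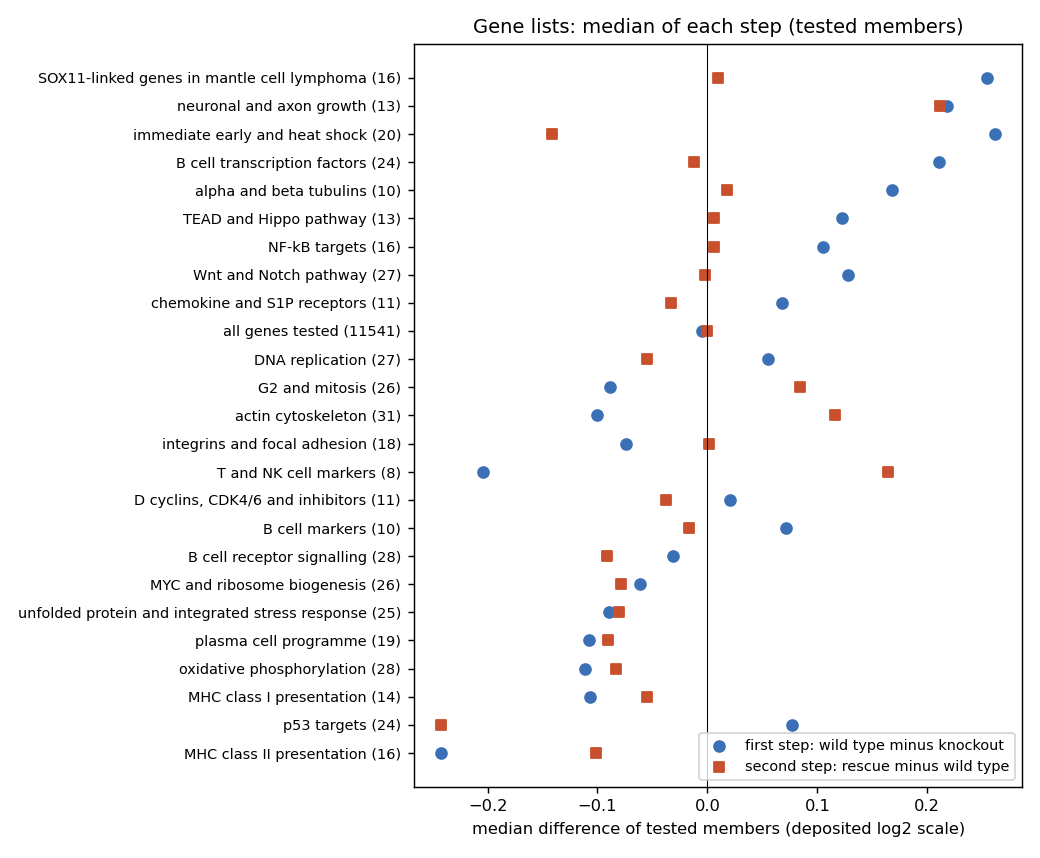
Median lower step (circles) and median upper step (squares) over the tested members of each list with at least 5 tested members, on the deposited log2 scale, with the number tested in parentheses. Neuronal genes have both medians above 0, MHC class II genes both below, and p53 targets a median of -0.24 in the upper step only. The lists were chosen with earlier results of these data known.

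**Figure D5:**
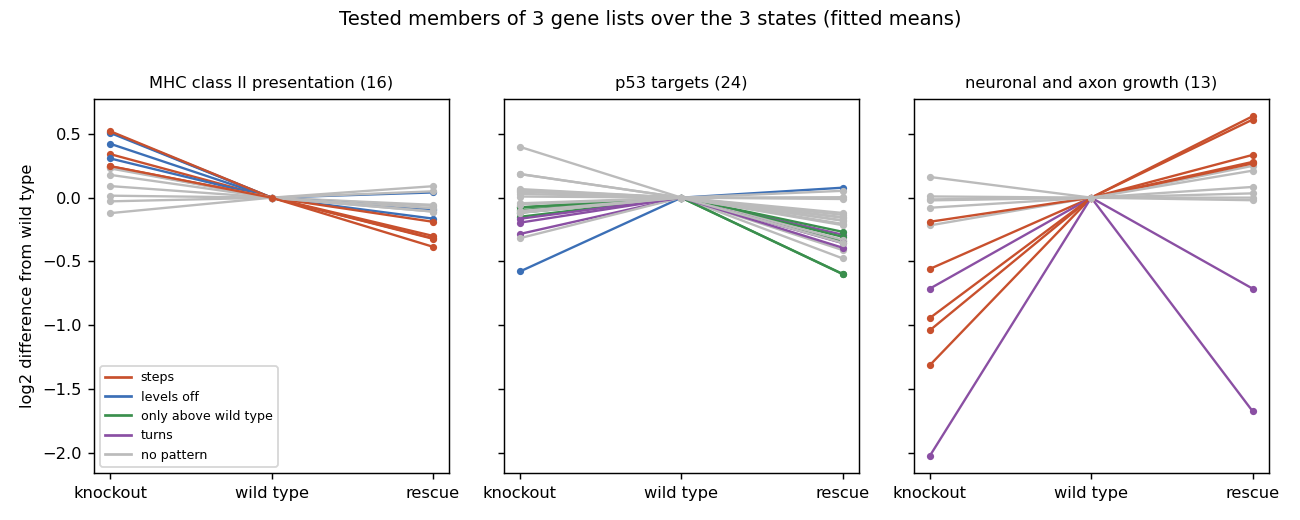
Difference of each tested member of 3 lists from wild type in the knockout and the rescue (fitted means on the deposited log2 scale), 1 line per gene, coloured by pattern. MHC class II genes mostly descend from knockout to rescue, p53 targets descend after wild type, and the 2 purple neuronal genes, BEX3 and CRMP1, peak in wild type.

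All 10 B cell markers were detected and tested, with CD79A, MS4A1, IGHM and CCND1 well above their floor in every group. The 10 had summed normalized counts of 423141 to 470676 in the knockout and 386018 to 443918 in wild type. In the rescue the sum was 357961 to 385799. In each step 3 rose and 2 fell, against 11.34% and 10.17% in the lower and 4.26% and 3.79% in the upper. Without the replicate block 0 rose and 1 fell in each step. CD37 had means of 252, 365 and 488, CD74 of 164689, 115108 and 107638, and CD22 of 459, 306 and 431. Markers of T and NK cells had their lowest sum in wild type, but single members differed. Over the 16 of 19 in the file, summed normalized counts were 2553 to 2748 in the knockout. They were 1405 to 1607 in wild type and 2007 to 2192 in the rescue. Of the 8 tested 5 fell in the lower step, against a background of 10.17%, and 4 rose in the upper, against 4.26%. In the lower step 1 rose, against 11.34%, and 3 of the 8 were called lowest in wild type, against 0.788%. TRAC alone had a called slope, upward, with means of 4.27, 24.3 and 52.6. By group means TRAC reached the CPM of 1 asked for testing only in the rescue, and NKG7, with 43, 12.6 and 28.5, only in the knockout. KLRD1, with 46.2, 23.4 and 46.5, reached it only in knockout and rescue. The calls of these genes, and the counts over the 8 tested, thus follow in part from the filter. CD8A, which was not tested, had 1.49, 11.6 and 4.19. The best expressed were CD247 with means of 836, 749 and 701, CD4 with 846, 179 and 362, CD3G with 497, 376 and 390 and PRF1 with 314, 95.8 and 422, and CD3E had 83.2, 37 and 79.9. CD3D, CD8B, TRBC1 and CD5 were under 4 in every group mean, and TRBC2 was at 0 in the knockout and the rescue. The 7 of 12 myeloid markers in the file summed to 130 to 174 in the knockout, 82.3 to 86.5 in wild type and 111 to 152 in the rescue, with MPO, ELANE, S100A8 and S100A9 not listed. CD68 was the highest, with means of 99.4, 54 and 62.4, followed by LYZ with 22.4, 11.9 and 29.8 and ITGAM with 20.7, 6.68 and 15. The 8 of 14 stromal and epithelial markers in the file summed to 1447 to 1772, 1260 to 1591 and 971 to 1172, mostly COL1A1. The part of other cells in any result was not tested, and in bulk samples fewer cells of a type and less RNA per cell cannot be told apart.

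Whether genes also followed SOX11 among libraries of 1 state was asked with a slope fitted within groups and batches. No gene passed (0 by limma, also 0 under the alternatives run), and 431 of 11541 (3.73%) had an unadjusted p under 0.05. SOX11 varied little within groups, so the slopes above rest on differences between the 3 states.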

How the data were processed

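Polyadenylated RNA of 9 Z138 libraries was sequenced on a NextSeq from a TruSeq RNA or a stranded total RNA kit, per the labels' protocols, with no word on which library had which, so genes overlapped by an antisense partner are uncertain. The submitters' processing notes list FastQC 0.11.9, Trimmomatic 0.40, kallisto 0.46.1, R (4.3.2), DESeq2 1.24.0 and the build GRCh38.p13. The authors deposited log2 values of 16586 genes. The table is named for log CPM, which the design assumed, but the libraries share the lowest value 8.5985 and, taken out of the logarithm, sum to over 44000000 each, so the values were read as variance-stabilized. They were tested as deposited, and their closed form (constant 388) was inverted to normalized counts and CPM. Low values of single-transcript genes then fell within 0.05 of whole reads in 79% to 98.2% of cases (10% by chance), from which depth was estimated. Floors (3 reads per library) cover counting error only.

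Testing took the 11541 genes that reached a CPM of 1 in 3 or more libraries, leaving out SOX11 and 5044 others, with limma 3.58.1 (R 4.3.3, trended prior variance). The fits were the SOX11 slope with batch (5 residual degrees of freedom before moderation), group means with batch (4) and a slope within groups (3), with Benjamini-Hochberg adjustment over all tested genes and a threshold of 0.05. The block is the labelled batch, equal to the replicate number. Over genes, deviations from the group mean had correlations of 0.187 to 0.51 between libraries of 1 batch, and 9 of 9 libraries had their highest correlations within their own batch.

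Named genes were those of each pattern with the largest change, among genes whose called steps separated the groups and whose highest group had a mean log2 CPM of 1 or more: 12 rising and 12 falling stepwise, 8 and 8 levelling, 6 and 6 late (upper step alone), 4 and 4 turning, passing over pseudogenes, clone and antisense names. To these came up to 4 members per list with the smallest adjusted p of the slope and the SOX11-linked genes; not all are printed. Other list members named beside a count, such as FYN, BCL11A, IRF8, WNT16, NR4A1, MDM2, CRMP1 and CD74, were picked after their values were seen. Patterns, members and lists were chosen with earlier results of these data known. Positions are GENCODE 29's (16461 genes matched by identifier) and promoters RefSeq's (9116 tested genes matched by symbol).

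Alternatives were no block, no filter or a CPM of 4, log2(CPM + 1) or log2(CPM + 0.5), quantile normalization or median centring, a prior variance that was constant or robust, other forms of the SOX11 value, stricter pattern rules (among them a fold of 1.25 or more in each step), and leaving out each library or batch. On simulated counts with 200 of 11541 genes changed, the stepwise pattern recovered 24% of its genes at 1.25-fold per step, 60% at 1.5, 80% at 2 and 100% at 4, and the levelling pattern 8%, 52%, 76% and 88%. Unchanged genes entered a pattern in 3 cases. The simulation had no batch effect and gave genes of like expression 1 common spread, so it does not give the rate of such entries in these data. Figures were drawn with matplotlib 3.10.9.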

Additional observations from a re-analysis of the deposited data

How the results depend on the processing

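Counts over all genes depended on the replicate block and on the number of libraries. Without the replicate block the lower step was called in 1469 genes, the upper step in 469 and the bend in 570, and 114 genes were stepwise, 353 levelling, 44 late and 148 turning. Of the 258 stepwise genes 95 rising and 19 falling were also stepwise without the block, and the rising share went from 69.4% to 83.3%. With each library left out in turn, the slope was called in 1114 (without knockout replicate 3) to 2858 genes (without wild-type replicate 2), the lower step in 1567 (without wild-type replicate 1) to 2266, the upper step in 391 (without rescue replicate 2) to 921, and the bend in 525 (without wild-type replicate 1) to 909. Stepwise genes then numbered 111 (without rescue replicate 2) to 203, levelling 288 (without wild-type replicate 1) to 562, late 34 (without wild-type replicate 2) to 91 and turning 149 (without rescue replicate 2) to 243. Other libraries whose omission moved a count by more than 1.5 times were knockout replicates 1 and 2 and rescue replicates 2 and 3 for the slope (1230, 1429, 1241 and 1385), knockout replicates 1 and 2 for the lower step (1583 and 1620), wild-type replicates 1 and 2 and rescue replicates 1 and 3 for the upper step (612, 613, 606 and 502), wild-type replicates 1, 2 and 3 and rescue replicate 3 for stepwise genes (142, 161 and 126, and 101 rising with 37 falling), knockout replicate 2 for levelling genes (381), and knockout replicate 1, wild-type replicate 1 and rescue replicates 2 and 3 for late genes (66, 36, 50 and 59). The rising share of stepwise genes was 79.6% and of late genes 58.3% (47% as reported) without wild-type replicate 1. Leaving out batch 1, 2 or 3 gave 927, 1081 and 681 slopes, 416, 428 and 422 upper steps, 92, 108 and 75 stepwise, 31, 43 and 61 late and 122, 136 and 148 turning genes; the lower step was called in 1180 without batch 1 and 1649 without batch 3, the bend in 447 and 601 and levelling in 271 and 398 without batches 1 and 2. The rising share of stepwise genes was 85.9% without batch 1. With SOX11 as a normalized count in place of its log2 value, there were 1258 slopes, 1742 bends, 1306 levelling and 36 late genes. Asking also for the minimum fold given with the methods in each step left 169 stepwise genes (81.7% rising), and the narrow interval 268 levelling genes. Other filters, scales, centrings and prior variances moved no count over all genes by more than 1.5 times. Over the settings counted, 41 rising and 8 falling stepwise genes kept their pattern throughout, as did 76 and 38 levelling genes. So did 1 rising and 0 falling late genes, and 56 peaking and 28 dipping turning genes. The minimum fold, the narrow interval, and SOX11 as log2(CPM + 1) or as group mean were not among the settings counted. A gene that the stricter CPM filter left untested counted as kept there.

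Sign changes were looked for among the named genes only, in the slope for those that were stepwise or in no pattern. The slopes that changed sign under some setting were all near 0 and uncalled. For PRDM1, 0.0056 as reported, they were -0.00063 with quantile normalization, -0.0021 without knockout replicate 3, -0.00011 without rescue replicate 2 and -0.00077 without batch 2, and 0.0123 at the most, without rescue replicate 3. For EPCAM, 0.014 as reported, it was -0.0014 with quantile normalization. For SMAD3, -0.0015 as reported, they were 0.0043 without the replicate block, 0.0038 on log2(CPM + 1) and log2(CPM + 0.5), 0.000996 with quantile normalization, 0.00026 with SOX11 as group mean, 0.0021 with equal steps, -0.0403 without rescue replicate 1, 0.01 without knockout replicate 3, 0.00031 without wild-type replicate 2, 0.013 without rescue replicate 2, 0.032 without rescue replicate 3, 0.0063 without batch 2 and 0.033 without batch 3. The cause was not tested. With 3 libraries per group, changes under 1.5-fold per step were often below what the fit could place in a pattern.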
